A study of Homo sapiens with 2 samples.

Results

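The genes described here encode the folding, quality control and protein disposal machinery of the endoplasmic reticulum, together with the sensors that adjust it to load. The list names 38 genes, and its rule uses function and annotation, not intensities: every probe set that the array's annotation gives to one of these genes alone was taken. The list itself was chosen with earlier results of these data known. Of the 38 genes, 37 had at least 1 such probe set (96 probe sets in all, out of 54675 on the array) and 36 were measured, among 13453 measured genes of 19775 named. SYVN1, the ubiquitin ligase that partners SEL1L, had no probe set assigned to it alone and has no value here. CREB3L1, a membrane-bound transcription factor, lay at the floor in both arrays. The floor is the median of an array (28.7 without and 28.4 with stretch); lower intensities were raised to it, and a gene above it in at least 1 array counts as measured.

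Total RNA came from Calu-3, an established human lung adenocarcinoma line that grows as an airway-like epithelial sheet. One culture was held for 18 h under cyclic strain (sine wave, 2 s on and 2 s off, from 0.7% up to 20%), and the other is labelled as 18 h without strain. The labels' protocols describe flexible membranes coated with type I collagen, growth to about 80% confluence and medium with 10% serum, and name no genetic change or drug for either culture. Each condition has 1 array (n = 1), so every value below compares these 2 arrays, with no replicate, no SD between cultures and no test, and their number limits the precision. A probe set's own log2 difference had an SD of 0.36, taken from the spread between probe sets of 1 gene over 5818 genes; it covers probe noise and isoforms, not variation between cultures. In bulk RNA, fewer cells that use a gene and less RNA per cell cannot be told apart.

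All 10 airway epithelial markers, among them EPCAM, CDH1 and the keratins KRT8 and KRT18, were measured in both arrays, with summed intensities of 63502 without and 58227 with stretch. The keratins, which make up most of that sum, differed by at most 0.22 on the log2 scale, but 3 of the 10 markers were past 2-fold lower: ELF3 (2934 to 810, -1.86), MUC1 (-1.45) and CFTR (-1.43), and CLDN4 stood at -0.67. The part of these epithelial genes in the members' differences was not tested. Of 6 fibroblast markers 3 were above the floor in at least 1 array (sum 231 and 188), and COL3A1, LUM and PDGFRB were not. Of 4 leukocyte markers with a probe set, 3 exceeded the floor. PTPRC, which marks leukocytes as a class, did not, and nearly all of the sum (1352 and 1567) came from LYZ, a lysozyme that airway gland cells also make. PECAM1 was the only endothelial marker of 3 above the floor, with sums of 62.7 and 64.0. Plasma cells are rich in the genes described here, and of their 4 markers MZB1, JCHAIN and TNFRSF17 lay at the floor while SDC1, which epithelia also express, was at 2191 and 2701 (marker sums 2207 and 2733).

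Secreted and membrane proteins enter the endoplasmic reticulum through the SEC61 channel, where chaperones, glycan-binding lectins and disulfide isomerases fold them. Chains that fail to fold are handed back to the cytosol for proteasomal destruction, a route called endoplasmic-reticulum-associated degradation (ERAD). When unfolded chains accumulate, the sensors IRE1 (gene ERN1), PERK (EIF2AK3) and ATF6 start the unfolded protein response, in which XBP1, ATF4 and cleaved ATF6 raise transcription of chaperone and ERAD genes.

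Promoters of these genes are known for short elements read by those factors, so the reference sequences are shown before the values. The RefSeq table (GRCh38.p14) held promoters for 35 of the 38 genes, in 43 entries, each from 250 bases before to 50 bases after a transcript start. PDIA3, DERL1 and DERL3 had no entry. Both strands were searched for the endoplasmic reticulum stress element ERSE, bound by NF-Y with ATF6, which is CCAAT and CCACG with 9 bases of any kind between them. They were also searched for ERSE-II, which is ATTGG and CCACG with 1 base between. The other motifs were the core of the XBP1-bound element UPRE, TGACGTGG, and the C/EBP-ATF response element CARE, TGATGNAAN, which ATF4 dimers read. Of the 250 bases before each start, these stretches, given on the gene's own strand with matches in capitals, belong to the gene of the main chaperone BiP, to XBP1 and to the ERAD gene with the largest difference:
HSPA5 (chr9:125241344-125241593, minus strand): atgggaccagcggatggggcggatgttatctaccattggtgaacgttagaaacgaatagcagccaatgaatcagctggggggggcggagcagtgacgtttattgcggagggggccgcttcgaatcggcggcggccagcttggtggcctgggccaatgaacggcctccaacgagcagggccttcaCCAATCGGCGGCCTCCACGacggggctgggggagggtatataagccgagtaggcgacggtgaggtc
XBP1 (chr22:28800570-28800819, minus strand): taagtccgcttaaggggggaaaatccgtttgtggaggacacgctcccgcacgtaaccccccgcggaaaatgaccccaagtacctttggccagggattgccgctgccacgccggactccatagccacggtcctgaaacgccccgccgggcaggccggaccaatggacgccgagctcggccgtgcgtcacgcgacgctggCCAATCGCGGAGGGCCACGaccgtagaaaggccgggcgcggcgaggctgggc
HERPUD1 (chr16:56931892-56932141, plus strand): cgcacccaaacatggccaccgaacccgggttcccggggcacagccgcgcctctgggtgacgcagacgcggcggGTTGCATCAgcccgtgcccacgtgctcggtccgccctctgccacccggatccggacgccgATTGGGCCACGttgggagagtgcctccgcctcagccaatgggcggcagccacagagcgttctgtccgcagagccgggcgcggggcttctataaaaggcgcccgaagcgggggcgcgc
HSPA5 and XBP1 each carried 1 exact ERSE match, at bases -66 to -48 and -52 to -34 before the start. Only exact matches are marked. The HERPUD1 stretch also holds an unmarked sequence that differs from the ERSE by 1 letter. HERPUD1 carried an ERSE-II at -117 to -107 and, on the opposite strand, a CARE at -177 to -169.

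An ERSE was present in 8 members (CALR, CANX, CRELD2, ERO1B, HSP90B1, HSPA5, PDIA6 and XBP1), that is in 10 of the 43 member entries against 0.0769% of all 35116 promoter entries. An ERSE-II was present in 3 members (HERPUD1, HYOU1 and SDF2L1), against 0.0541% of all entries. The windows below show the element, in capitals, in members from both ends of the range of differences, on the gene's strand. CGTGG at the left end marks a match read on the opposite strand.
ERO1B (chr1:236282171-236282208, minus strand): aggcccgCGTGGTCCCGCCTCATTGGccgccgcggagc
HSP90B1 (chr12:103930204-103930246, plus strand): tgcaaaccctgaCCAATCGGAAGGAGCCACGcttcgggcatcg
HSP90B1 (chr12:103930309-103930351, plus strand): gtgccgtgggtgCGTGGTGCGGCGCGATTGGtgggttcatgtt
CALR (chr19:12938372-12938414, plus strand): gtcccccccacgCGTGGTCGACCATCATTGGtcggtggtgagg
PDIA6 (chr2:10812841-10812883, minus strand): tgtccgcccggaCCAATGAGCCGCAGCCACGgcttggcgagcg
CANX (chr5:179698766-179698808, plus strand): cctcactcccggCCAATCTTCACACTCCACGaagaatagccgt
CRELD2 (chr22:49918542-49918584, plus strand): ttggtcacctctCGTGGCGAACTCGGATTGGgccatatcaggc
SDF2L1 (chr22:21642102-21642136, plus strand): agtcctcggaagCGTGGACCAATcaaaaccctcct
HYOU1 (chr11:119057368-119057402, minus strand): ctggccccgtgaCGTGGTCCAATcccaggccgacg
HYOU1 (chr11:119057262-119057296, minus strand): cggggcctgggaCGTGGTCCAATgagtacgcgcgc
The UPRE core was found in DNAJC10 and HYOU1 (0.729% of all entries), where in HYOU1 it overlapped the first of the ERSE-II matches. A CARE was found in CREB3L2, downstream of the start, and in HERPUD1, against 3.61% of all entries. These are exact matches of letters in a fixed window, not shown binding sites. Elements with a changed letter, or outside the window, are missed.

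Genes of the sensors IRE1 and PERK, of the chaperone BiP and of the ERAD adaptors were lower in the stretched array by their highest probe sets. The IRE1 gene was at least 2-fold lower in only 1 of its 3 probe sets. Most folding enzymes differed by less than 1.5-fold. By the probe set with the highest mean log2 intensity of each gene, 9 of the 36 measured members (25%) were called lower, meaning at least 2-fold lower under stretch, against 7.49% of all measured genes. None was called higher by the same fold, against 7.78%. Below 0 lay 35 of 36 members, against 49.5% of all measured genes, and SDF2L1 was the exception. The median log2 difference (stretched minus non-stretched) was -0.45 over the members and 0.005 over all measured genes. At 1.5-fold, 15 members were lower and none higher, against 16.7% and 17.9% of all measured genes.

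**Figure D1:**
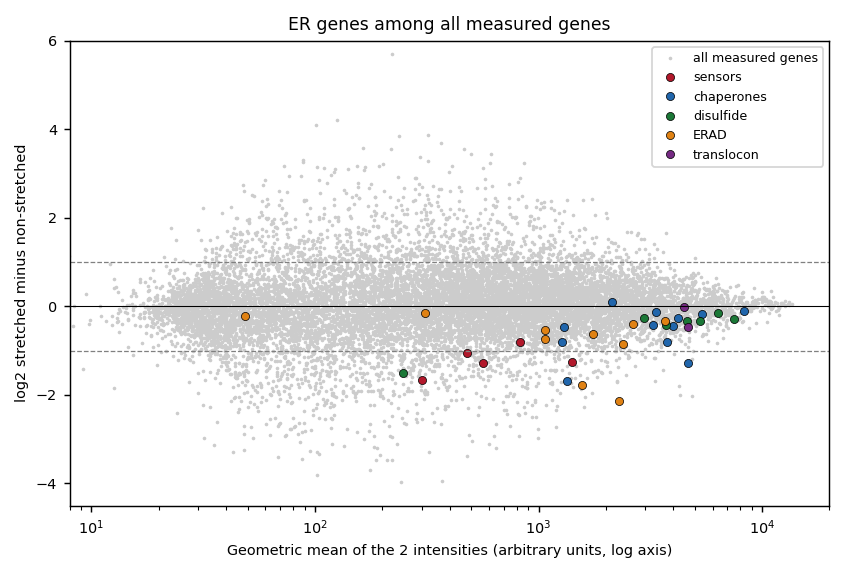
Log2 difference (stretched minus non-stretched, vertical axis) against the geometric mean of the 2 intensities (horizontal log axis) for all measured genes (grey) and the 36 measured members (coloured by role), with dashed lines at 2-fold. The members lie between -2.13 and 0.11, and 35 of them lie below 0.

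Differences shrink at high intensity in this array pair, as the spread of all genes shows. Of genes with a geometric mean intensity above 1000, 2.92% were called lower, 4.09% called higher and 45.7% lay below 0. In that range lay 29 members, of which 5 were called lower (CREB3L2, HSPA5, DNAJB9, HERPUD1 and SEL1L), none was called higher, and 28 were below 0. Their median was -0.43, beside 0.04 for all genes in that range.

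The sensors and their transcription factors were the subgroup with the lowest median, -1.25. ERN1 encodes IRE1, the kinase and RNase that splices XBP1 mRNA. Its intensity went from 532 in the array without stretch to 169 with stretch, 3.15-fold lower. Its other probe sets were dim and did not show this: one went from 70.2 to 81.2 (log2 difference 0.21) and the other from 42.0 to 37.9 (-0.15). So the ERN1 difference rested on 1 of 3 probe sets, and the mean over all of them was -0.53. EIF2AK3, the gene of PERK, which phosphorylates the translation factor eIF2 alpha, went from 879.95 to 365, 2.41-fold lower, by its only probe set above the floor. XBP1 went from 687 to 332, 2.07-fold lower, also by 1 measured probe set, and lay just past the 2-fold line; it stood at -0.98 with a pseudocount of 32 in place of the floor. Splicing of XBP1 mRNA was not measured.

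CREB3L2, a relative of ATF6 that is also cut by Golgi proteases and drives secretory genes, went from 2181 to 916. That is 2.38-fold lower by a probe set with the suffix _s_at, one of the designs (with _x_at) that can bind related transcripts. Its dimmer probe set went from 46.2 to 39.2 (-0.24), and the mean of both was -0.74. ATF6 itself was not past 2-fold, but its 4 probe sets were close to one another, with log2 differences from -0.91 to -0.73. The highest of them went from 1099 to 625, and the next from 1081 to 593. In all, 4 of the 5 measured genes of this subgroup were at least 2-fold lower, against 7.49% of all measured genes. That count was 2, EIF2AK3 and XBP1, when the probe sets of a gene were averaged.

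**Figure D2:**
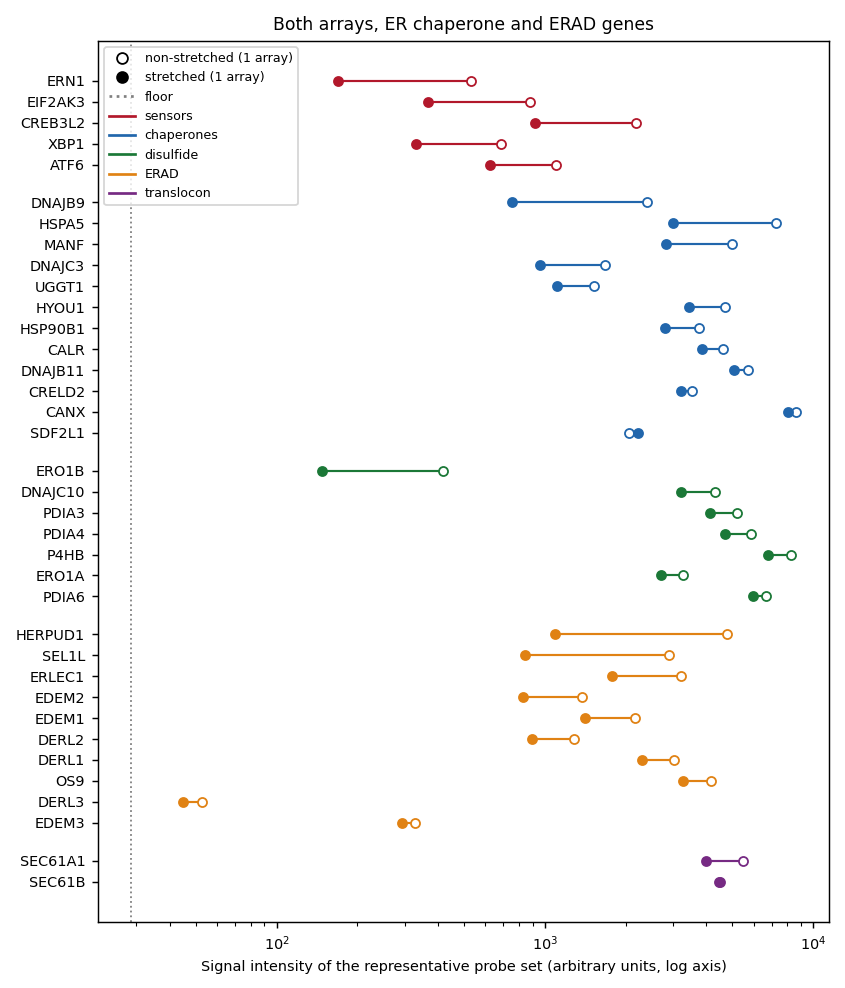
Intensity of each measured member in both arrays (horizontal log axis, arbitrary units; open circle, non-stretched; filled circle, stretched; 1 array each), by role, with the non-stretched floor dotted. Every filled circle lies left of its open circle except that of SDF2L1 (2055 and 2218), and HERPUD1 has the longest line (4769 to 1092).

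Among the chaperones, HSPA5 and a J-domain partner were lower and the other members differed by less than 2-fold. HSPA5 encodes BiP, the HSP70 of the endoplasmic reticulum, which also holds the sensors inactive. It went from 7243 to 2995, 2.42-fold lower, and its other probe set from 584 to 213 (log2 difference -1.46). DNAJB9 (ERdj4), a BiP co-chaperone that returns IRE1 to its resting state, went from 2406 to 752, 3.20-fold lower. Its other probe sets went further, from 572 to 139 and from 333 to 65.2, at -2.04 and -2.35. For both genes every measured probe set was at least 2-fold lower.

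Other partners of BiP differed to very different degrees. DNAJC3 (p58IPK), a co-chaperone known to restrain PERK, went from 1673 to 962 (-0.80), while its dimmer probe sets lay between -0.27 and 0.13 and the mean of all 4 was -0.30. DNAJB11 (ERdj3), which binds unfolded chains for BiP, went from 5718 to 5077 (-0.17). HYOU1 (GRP170), the nucleotide exchange factor of BiP, went from 4677 to 3431 (-0.45). SDF2L1, which forms a complex with DNAJB11, went from 2055 to 2218 (0.11) and was the only member above 0. The DNAJC3 value of the highest probe set was not shared by its other probe sets, and DNAJB11, HYOU1 and SDF2L1 had 1 probe set each.

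MANF, a secreted stress-response protein that binds BiP, went from 4971 to 2828 (-0.81), and CRELD2, another secreted stress marker, from 3519 to 3214 (-0.13). The large chaperone HSP90B1 (GRP94) went from 3767 to 2794 (-0.43) in a probe set ending in _x_at and from 294 to 283 (-0.05) in the other, of the same kind. A further 3 probe sets list a member, HSP90B1 or SYVN1, with another gene and were not used.

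The lectin cycle holds glycoproteins until they fold, and none of its genes reached 2-fold. CALR, the soluble lectin calreticulin, went from 4605 to 3858 (-0.26), with its other probe sets at -0.43 and -0.61. CANX, its membrane-bound counterpart calnexin, went from 8638 to 8023 (-0.11), and its other measured probe sets ranged from -0.41 to 0.12. UGGT1, which puts glucose back on misfolded glycoproteins so that the lectins rebind them, went from 1524 to 1107 (-0.46), with 5 probe sets from -0.65 to 0.10. Over all 12 chaperone and glycoprotein folding genes, 2 (16.7%) were at least 2-fold lower, 11 were below 0 and the median was -0.44. Of all measured genes 7.49% were at least 2-fold lower and 49.5% were below 0.

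Disulfide formation genes were lower by small amounts, with ERO1B as the exception. P4HB, the archetypal disulfide isomerase PDI, went from 8283 to 6793 (-0.29), and its other probe sets were at -0.35 and -0.66. PDIA3 (ERp57), which works with the lectins, went from 5202 to 4128 (-0.33), though a dim probe set was at 0.24. PDIA4 went from 5870 to 4700.2 (-0.32), with a second probe set at -0.61. PDIA6, which also damps IRE1 signalling, went from 6682 to 5980 (-0.16), and its 4 probe sets lay between -0.16 and -0.10. These isomerases thus all lay below 0 in their highest probe set, within -0.33 and -0.16.

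The oxidases that recharge PDI were unlike each other. ERO1A went from 3264 to 2702 (-0.27), with its other probe sets at -0.16 and -0.68. ERO1B, its paralogue, went from 418 to 147, 2.84-fold lower, and from 100.05 to 59.5 (-0.75) in its other probe set. With the floor raised to the 75th percentile (231 without and 249 with stretch), its stretched value was set to 249. ERO1B then stood at -0.75 and, starting from 418, could not be called. Under that floor 8 of 35 members were called lower, against 4.59% of measured genes, and none higher, against 6.39%. DNAJC10 (ERdj5), a J-domain reductase that unlocks disulfides before ERAD, went from 4317 to 3216 (-0.42). It had 3 further probe sets between -0.64 and -0.53, and another that left the floor only under stretch and had the highest value of any member probe set (at least 0.79). Of the 7 genes, 1 (14.3%) was at least 2-fold lower, against 7.49% of all measured genes, and the median was -0.32. A list this short says little by that count.

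In ERAD the membrane adaptors were lower and the lectins, mannosidases and derlins graded from moderate to small differences. HERPUD1 (HERP), the scaffold that gathers the degradation complex, went from 4769 to 1092, 4.37-fold lower, the largest difference of any member. This rests on 1 probe set ending in _s_at, since its other lay at the floor in both arrays. SEL1L, the adaptor that holds the ligase and its substrates together, went from 2896 to 846, 3.42-fold lower. Its other probe sets, all ending in _s_at, went from 542 to 192 (-1.50), from 408 to 203 (-1.01), and from 128 to below the floor. Every SEL1L probe set was thus at least 2-fold lower. Once probe sets with an _s_at or _x_at suffix were removed neither gene had a measured value, and no ERAD gene was then called lower.

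ERLEC1, a lectin that delivers glycoproteins to SEL1L, went from 3207 to 1776 (1.81-fold lower, log2 difference -0.85), with a second probe set at -0.57. OS9, the other lectin of this kind, went from 4142 to 3274 (-0.34), with a second probe set at -0.65. The mannosidase-like EDEM proteins mark glycoproteins for disposal. EDEM1 went from 2175 to 1405 (-0.63) and EDEM2 from 1380.3 to 828 (-0.74), each by 1 probe set. EDEM3 went from 327 to 293 (-0.16), with its other probe sets at -0.47 and -0.16. All 3 EDEM genes thus lay below 0 in every measured probe set.

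The derlins help form the channel back to the cytosol. DERL1 went from 3027 to 2303 (-0.39), and its other probe sets ranged from -0.64 to 0.20. DERL2 went from 1287 to 891 (-0.53), with a second probe set at -0.32. DERL3 was close to the floor in both arrays, at 52.6 and 44.9, with a second probe set at 0.08, so its difference carries little information. Of the 10 measured ERAD genes 2 (20%) were at least 2-fold lower, all 10 were below 0 and the median was -0.58. Over all measured genes the shares were 7.49% and 49.5%. 

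Neither translocon gene reached 2-fold, and their differences were unlike. SEC61A1, the pore-forming subunit, went from 5497 to 3969 (-0.47), with a second probe set at -0.53. SEC61B, a small accessory subunit, went from 4507 to 4459 (-0.02), and its other probe set was at the floor. With quantile normalization SEC61B was above 0.

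**Figure D3:**
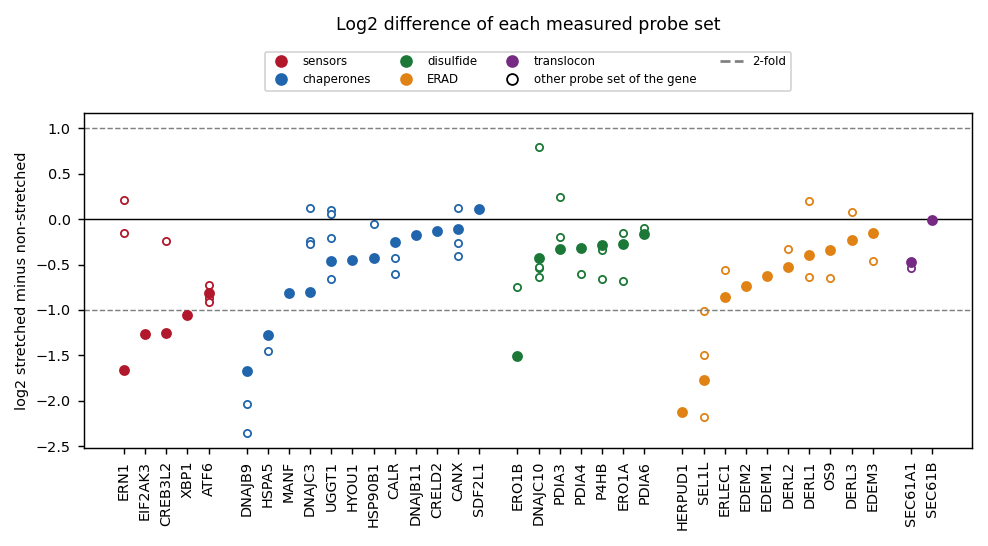
Log2 difference (stretched minus non-stretched) of each of the 86 measured probe sets of the members, by gene and role; filled points are the probe sets with the highest mean intensity, open points the others, dashed lines 2-fold. DNAJB9, HSPA5 and SEL1L have all their points below the lower dashed line, whereas ERN1 and CREB3L2 have dim probe sets near 0.

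Over the 96 probe sets of the members, 86 were measured, 76 of these were below 0, 15 were past 2-fold in that direction and none in the other. Over all 24977 measured probe sets of named genes the shares were 46.7% below 0, 6.48% past 2-fold lower and 8.66% past 2-fold higher. Of the 25 members with at least 2 measured probe sets, 17 had all of them below 0, beside 29.5% of such genes on the whole array. The other 11 members rested on 1 measured probe set. Of the 86 measured probe sets 38 had an _s_at or _x_at suffix.

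Exact matches to the promoter elements in this window did not divide the members by the size of the difference. Members without a match may hold elements with a changed letter or outside the window. The split therefore cannot separate genes with working elements from genes without them. Of 11 measured members with an ERSE or ERSE-II, 4 were at least 2-fold lower (XBP1, HSPA5, ERO1B and HERPUD1), with a median of -0.43 and a range from -2.13 to 0.11. Of 22 measured members with a promoter entry and neither match, 5 were at least 2-fold lower (ERN1, EIF2AK3, CREB3L2, DNAJB9 and SEL1L), with a median of -0.58. Of all measured genes 7.49% were at least 2-fold lower, with a median of 0.005. The ERSE of CANX, PDIA6 and CRELD2, printed above, thus stood before genes that differed by less than 0.2 on the log2 scale, as did the ERSE-II of SDF2L1. Both members with a CARE, HERPUD1 and CREB3L2, were at least 2-fold lower, each by 1 probe set ending in _s_at. The dimmer CREB3L2 probe set stood at -0.24. A CARE was in 2 of the 43 member entries, beside 3.61% of all entries, so this count says little.

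Other genes linked to the endoplasmic reticulum or its stress response were taken from lists set by function. Genes listed as targets of the PERK branch had the lowest median at the settings used throughout. PERK activity was not measured, and its part in their values was not tested. Of 11 measured PERK-branch genes 6 were called lower, none higher, and the median was -1.59, as compared with -0.45 for the members. The median was -0.83 (4 called) under the floor at the 75th percentile, where the sensors stood at -1.09, and -0.87 (3 called) once _s_at and _x_at probe sets were removed. DDIT3 (CHOP), the pro-death factor of this branch, went from 1948 to 214, and ATF3 and SESN2 were 6.27-fold and 6.02-fold lower. The other probe sets of ATF3 and SESN2 stood at -1.23 and -3.21. Under stretch all 3 genes lay below the higher floor (249) and were raised to it, so that setting understates their differences. Over the other 7 lists together, 12 of 133 measured genes (9.02%) were called lower and 2 higher, with 96 below 0 and a median of -0.17. On the whole array 7.49% were called lower, 7.78% higher and 49.5% lay below 0, so these lists were near it in the share called lower, but held fewer higher genes and more genes below 0 (72.2%).

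Entry and glycosylation genes showed no 2-fold difference. Of 22 measured genes for targeting, translocation and signal peptide removal none reached 2-fold, with a median of -0.14. Of all measured genes 7.49% were called lower and 7.78% higher. SRP72, of the signal recognition particle, was 1.53-fold higher (2067 to 3154), while TRAM1 and SEC61A2 stood at -0.48 and -0.42. Of 17 measured oligosaccharyltransferase and glycan-trimming genes none reached 2-fold either, with a median of -0.21. The largest differences there were in MAN1B1, a mannosidase that starts ERAD of glycoproteins (937 to 538, -0.80), in the catalytic subunit STT3B (-0.66) and in UGGT2 (-0.59, with another probe set at 1.05).

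Of 26 other measured folding and redox genes, 3 (11.5%) were called lower and 2 (7.69%) higher, for a median of -0.19. These shares were not far from the 7.49% and 7.78% of all measured genes. GPX8, a peroxidase of the endoplasmic reticulum membrane, was 4.32-fold lower (2002 to 463), with both probe sets at -2.11. FKBP7, a prolyl isomerase, was 3.46-fold lower in its highest probe set and differed by only -0.10 in another. SERPINH1 (HSP47), the collagen chaperone, was 3.30-fold lower (2037 to 616). The higher ones, named after their values were seen, were PDIA2 at 1.14 and FKBP11 at 1.02.

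Of 25 further measured ERAD genes 1 (4%) was called lower and none higher, for a median of -0.03, against 7.49% and 7.78% of all measured genes. That gene was RHBDD1, a rhomboid protease, 2.29-fold lower (424 to 186). With the floor at the 75th percentile (249 under stretch) it could not be called, starting from 424. The ubiquitin-conjugating enzymes UBE2G2 and UBE2J2 were 1.87-fold and 1.77-fold higher. Of 11 measured further regulators of the unfolded protein response, 2 (18.2%) were at least 2-fold lower, against 7.49% of all measured genes. The count was 1 when probe sets were averaged. It was 0 under the floor at the 75th percentile, where neither could be called because both stretched values were raised to 249. CREB3L4, of the same family as CREB3L2, was 3.02-fold lower (475 to 157). ATF6B, the paralogue of ATF6, was 2.60-fold lower in its highest probe set, with another at 0.22. MBTPS1, the site-1 protease that cuts ATF6, stood at -0.80 (2268 to 1305).

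Of 22 measured genes of exit from and retrieval to the endoplasmic reticulum, 4 (18.2%) were called lower and none higher, for a median of -0.27. Of all measured genes 7.49% were called lower and 7.78% higher. The count lower was 3 when probe sets were averaged. SEC24D, a cargo adaptor of COPII vesicles, was 3.49-fold lower (277 to 79.4) and ARFGAP3 2.51-fold lower. The tether GOLGB1 was 2.65-fold lower in its highest probe set, with another at -0.49. The remaining one, named after its value was seen, was BET1 (861 to 416, -1.05). Among 10 measured genes of ER-phagy and membrane shaping 2 (20%) were at least 2-fold lower, against 7.49% of all measured genes, for a median of -0.15. The 2 called lower were the ER-phagy receptors CCPG1, 5.41-fold lower (1686 to 311), and RETREG1, 4.10-fold lower (1451 to 354), both by _x_at probe sets. RETREG1 had another measured probe set at -1.91, and CCPG1 had none. Removal of _s_at and _x_at probe sets left neither gene a measured value. The sheet protein CKAP4 stood at -0.60, with another probe set at -1.20.

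**Figure D4:**
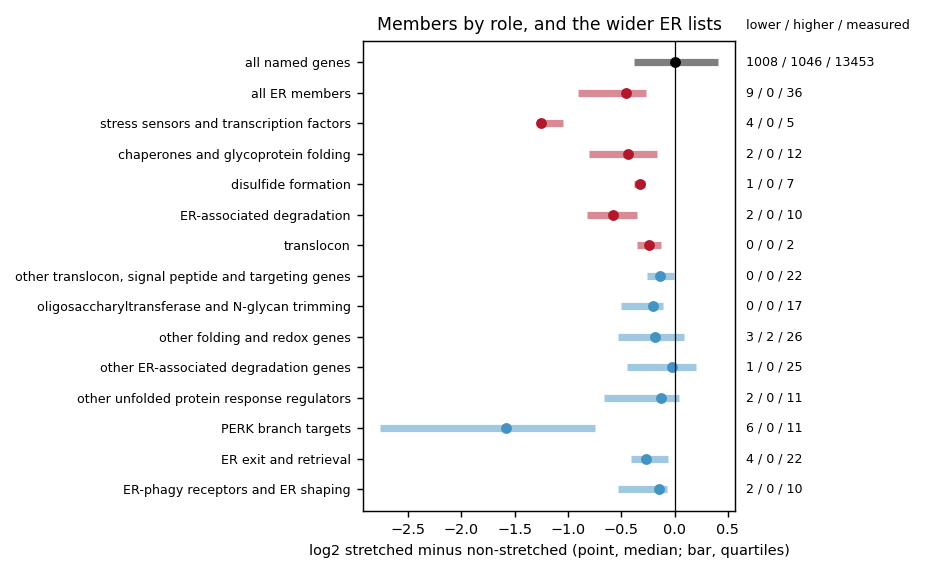
Median (point) and quartiles (bar) of the log2 difference, stretched minus non-stretched, for all measured genes (black), the members and their subgroups (red) and the wider lists (blue), with the numbers called lower, called higher (at least 2-fold) and measured at the right. The sensors (-1.25) and the PERK branch targets (-1.59) have the lowest medians; the translocon members are at -0.24.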

How the data were processed

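Per the labels' protocols, biotin-labelled cRNA was made from 6 µg of spin-column RNA and hybridised to Affymetrix arrays, 1 per condition. The authors deposited 1 linear signal intensity per probe set and array; how they were summarised and scaled is not given in the sources used here. The values were used as deposited: array medians differed by -0.02 on the log2 scale, 75th percentiles by 0.11, and 18 spike-in probe sets by a median of -0.11. Genes were assigned through the array's annotation, with symbols updated through gene IDs to RefSeq (GRCh38.p14); 1801 listed several genes and 11721 were unnamed here. Values below an array's 50th percentile were set to it, and log2 differences taken (Python 3.11.15, pandas, numpy), so that a low gene's fold is understated. Each gene is given by the probe set of highest mean log2 intensity. Called means at least 2-fold. With 1 array per group no test was run. The scripts were tested on simulated data. The members and all lists were chosen with earlier results of these data known. Every member is accounted for, and up to 3 genes per wider list with the largest difference, above the floor in both arrays, are named. Alternatives were another floor, no floor, a pseudocount of 32, averaged probe sets, removal of probe sets with an _s_at or _x_at suffix, and other scalings.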

Additional observations from a re-analysis of the deposited data

How the results depend on the processing

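No member changed sign among the 9 at least 2-fold lower under any alternative run, and no alternative put a member at least 2-fold higher. The count of lower members was 9 with no floor, with arrays centred on the 75th percentile and with quantile normalization. The shares of all measured genes called lower were then 9.34%, 9.05% and 8.50%, beside 7.49% at the main settings. Raising the floor to the 75th percentile, or a pseudocount, gave 8, against 4.59% and 5.60% of all measured genes. The count was 7 with probe sets averaged, against 6.54%. It was 6 of 28 after removal of probe sets with an _s_at or _x_at suffix, against 7.59%, and 15 when called at 1.5-fold, against 16.7%. Centring on the 75th percentile moved the median of all genes from 0.005 to -0.10; the members' median stood 0.46 below that of all genes before and after. It took the median to -0.56 for the members, -1.36 for sensors, -0.55 for chaperones, -0.43 for disulfide formation, -0.69 for ERAD and -0.35 for the translocon. After that removal the medians were -0.57 for the members, -1.05 for sensors, -0.61 for chaperones and -0.015 for the translocon; 0 ERAD genes were called, because HERPUD1 and SEL1L have no other measured probe set. Averaged probe sets gave -0.83 (2 called) for sensors and -0.27 for chaperones. The higher floor gave -1.09 for sensors and, since the stretched ERO1B value was raised to it, 0 called for disulfide formation. Of 144 measured genes of the wider lists together, 18 (12.5%) were lower, and 11 after the same removal. Of these lists 2 genes (1.39%) were higher, 3 after that removal, 1 under the higher floor and under either rescaling, and 0 with a pseudocount. Of 243 single-member values under the alternatives 235 were below 0 and 235 moved by less than the probe-set SD. No paired analysis was possible because each condition has 1 array. Signals near the floor, such as those of DERL3 and the dim ERN1 probe sets, limit what can be said of them.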

Other observations

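The searched elements also occur in promoters of genes outside the list. Of 8 other measured genes with an ERSE, 1 was called lower and none higher, for a median log2 difference of -0.33. It was SYNPO, the actin-associated synaptopodin, 4.14-fold lower (307 to 74.1). Of 13 other measured genes with an ERSE-II, 1 was lower (NAV2, 2.56-fold) and 1 higher (SHCBP1, 5.36-fold), with a median of 0.36. Of 127 other measured genes with the UPRE core 4.72% were called lower and 5.51% higher, beside 7.49% and 7.78% of all measured genes.

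Genes with a CARE match differed from that split. Of 332 other measured genes with this element, 47 (14.2%) were called lower and 20 (6.02%) higher, with a median of -0.12. Of all measured genes 7.49% were called lower and 7.78% higher. The 47 include ATF3, CHAC1 and ASNS of the PERK-branch list and GPX8 of the folding list, which were counted above. The lowest of the 47 were RGL1, 11.1-fold lower (622 to 56.0), the interferon-induced MX1, also 11.1-fold lower (696 to 63.0), and the AP-1 repressor JDP2, 10.4-fold lower (1538 to 148). These genes were named after their values were seen, the counts describe 2 arrays, and no test was run.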
